A study of Homo sapiens with 2 samples.

Results

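Of the 8 bladder cancer driver genes examined here, 6 gave RNA reads in both libraries of the urothelial carcinoma line BFTC 905. The cell cycle inhibitors CDKN2A and CDKN2B were listed at 0 in both, as were 23.2% of 18383 protein-coding symbols. The members were RB1, CDKN2A, CDKN2B, PIK3CA, HRAS, NRAS, TSC1 and STAG2, taken by symbol from 55773 gene symbols, and each was a single row of the tables. The values chosen for description are the levels in this line and the difference between the libraries, so they are given as descriptions without a test. BFTC 905 is an established human bladder carcinoma line, grown in RPMI-1640 with serum. The vector control library came from cells transfected with the empty plasmid pcDNA3.1-myc-His (-) A, and the ANGPTL4 library from cells transfected with a plasmid that overexpresses ANGPTL4. Both lines were selected with G418 as stable clones, and whether each library stands for 1 clone or a pool of clones is not given in the sources used here. There was 1 library per group, so every difference below compares 2 libraries and not the conditions.

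These genes lie on 3 routes that are often altered in urothelial cancer. HRAS and NRAS are small GTPases that carry signals from growth factor receptors to the RAF, MEK and ERK kinases and to the lipid kinase PIK3CA, whose product activates AKT and, through release from the TSC1-TSC2 complex, the growth kinase mTOR. CDKN2A and CDKN2B encode inhibitors of the cyclin D kinases CDK4 and CDK6, which phosphorylate the RB1 protein and so free E2F transcription factors for S phase; from another reading frame CDKN2A also encodes ARF, a regulator of the p53 pathway. STAG2 is a subunit of cohesin, the ring that holds sister chromatids together and shapes chromatin loops. In bladder tumours the RAS and PIK3CA genes are known for activating mutations and the others for loss.

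Levels are RPKM, reads per kilobase of exon per 1000000 reads, as the authors deposited them. The values move in steps of whole reads. The smallest totals that fit these steps were 6572767 reads for the empty-vector library and 3233596 for the ANGPTL4 one, and they are taken as the depths. The former was thus 2.03 times as deep, and the 6 genes rested on 186 to 752 reads in the former and 92 to 339 in the latter. The 95% intervals are exact intervals from these reads and cover counting error only. In bulk RNA, fewer cells with a transcript and less of it per cell cannot be told apart. ANGPTL4 itself was at 3.92 RPKM with the empty vector against 91.2 RPKM with the ANGPTL4 plasmid, which fits the labels. Of 16 urothelial and epithelial markers, 13 reached 1 RPKM, with the uroplakins UPK1B at 42.2 and 38.8 RPKM and UPK2 at 5.09 and 4.19 RPKM. Below that level were the uroplakins UPK1A at 0.115 and 0.234 RPKM and UPK3A at 0 in both, and the keratin KRT20 at 0 and 0.168 RPKM. Of 6 fibroblast markers 1 reached that level, COL1A1 at 4.14 and 4.06 RPKM, and DCN, LUM and COL3A1 were at 0 in both libraries. Of 3 endothelial markers 0 did. Of 6 leukocyte markers 3 did, CD68 at 17.1 and 18 RPKM, LAPTM5 at 3.39 and 1.98 RPKM and CD14 at 0.968 and 1.15 RPKM, while CD3E was at 0 in both and PTPRC at 0.0179 RPKM and 0. The summed levels were 4.76 and 4.73 RPKM for fibroblast and 21.5 and 21.1 RPKM for leukocyte markers, and their part in the results was not tested.

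NRAS had the highest level of the 6 genes and TSC1 and PIK3CA the lowest, and the order was nearly the same in both libraries. In the vector control the order was NRAS, HRAS, STAG2, RB1, PIK3CA and TSC1. The levels spanned 5.94-fold there and 6.29-fold in the ANGPTL4 library. A gene is called measured here if it reached 1 RPKM in a library, which 11802 did. Among these, NRAS stood above 87.4% in the control, HRAS above 77.0%, STAG2 above 74.0%, RB1 above 54.7%, PIK3CA above 49.8% and TSC1 above 39.1%. HRAS and STAG2 were neighbours whose control levels did not differ beyond counting error, with a ratio of 1.13 (0.953 to 1.32). In the ANGPTL4 library their ratio was 1.30 (1.02 to 1.64), an interval just above 1. RB1 exceeded PIK3CA in the control by a margin whose interval began at 1 (ratio 1.17, 1.0 to 1.37). In the ANGPTL4 library TSC1 ranked above PIK3CA, but their ratio of 1.22 had an interval of 0.945 to 1.57, so this order was not resolved. Nor was that of RB1 above TSC1 there (ratio 1.28, 0.992 to 1.64).

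**Figure D1:**
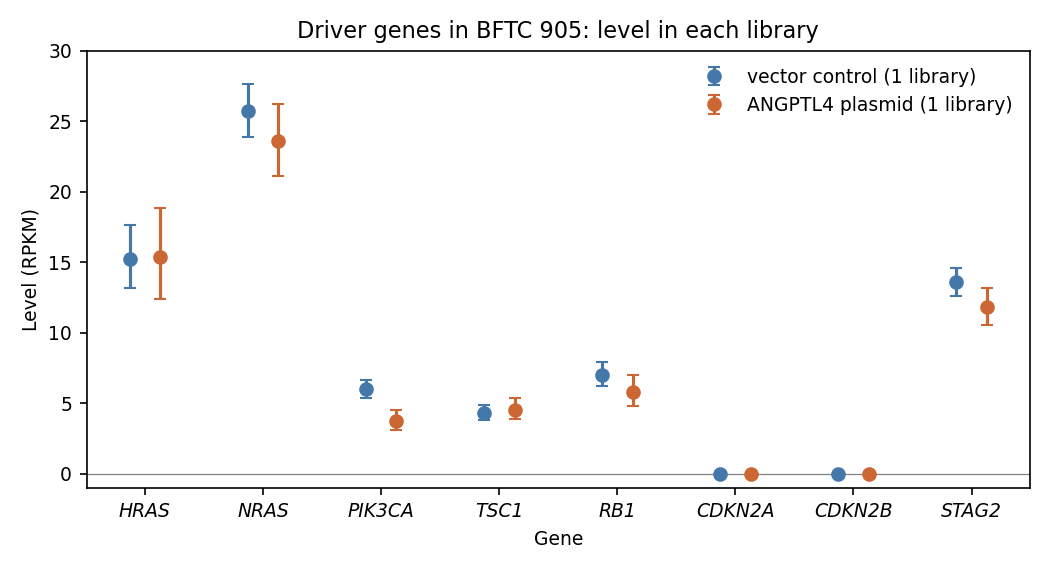
Level in RPKM (vertical axis) of each of the 8 genes (horizontal axis) in the vector control library (blue) and the ANGPTL4 library (orange), with exact 95% Poisson intervals from the reads as bars. The 2 intervals of each gene with reads overlap except for PIK3CA, and CDKN2A and CDKN2B are at 0 in both libraries.

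No measured member differed by 2-fold, as a plain ratio or with the pseudocount, between the libraries. On the log2(RPKM + 1) scale, 0 of 6 were at least 2-fold higher in the ANGPTL4 library and 0 of 6 at least 2-fold lower, against 1.19% and 1.91% of all measured genes. Their median log2 ratio was -0.15, beside -0.11 for all measured genes, so the middle member lay near the middle of the transcriptome. The intervals of the plain RPKM ratio lay wholly below 1 for 2 members, PIK3CA and STAG2, and included 1 for the other four. Over the 8811 measured genes whose exon length could be settled from the values, 27.7% had an interval wholly below 1 and 8.31% wholly above. After centring each ratio on the median gene, 1 member had an interval below 1, beside 16.7% of those genes below and 16.0% above. Scaling to the upper quartile also left 1 member, beside 15.2% below and 18% above, and rescaling each library to a sum of 1000000 gave 4 members, beside 45.2% below and 2.91% above. Because the median gene itself had a ratio of 0.912, each member is also given relative to that gene, as centred on the median.

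**Figure D2:**
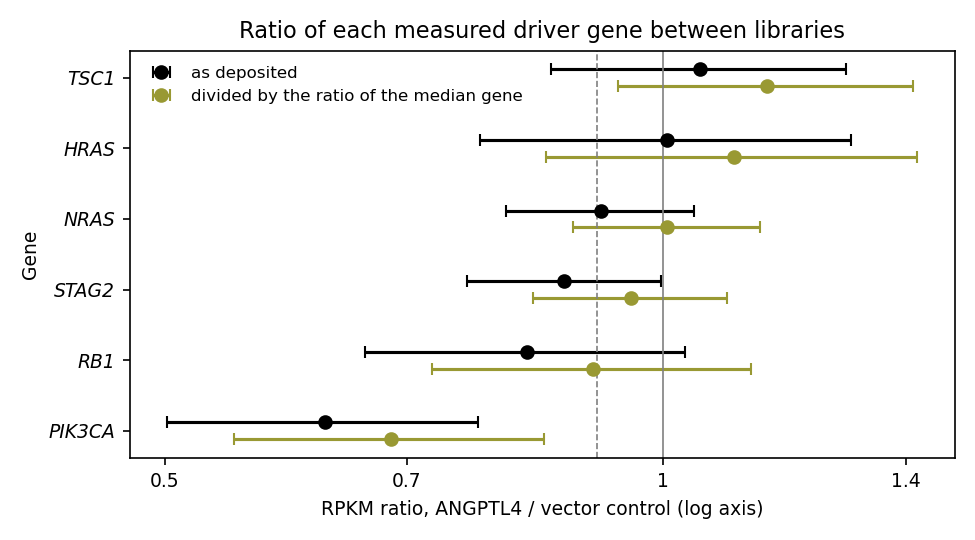
RPKM ratio of the ANGPTL4 to the vector control library (horizontal log axis) for the 6 measured genes (vertical axis), as deposited (black) and divided by the ratio of the median gene (olive), with 95% counting intervals; the dashed line is the median gene at 0.912 and the solid line is 1. PIK3CA alone has an interval below 1 on both scales.

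The RAS genes HRAS and NRAS were both well expressed and similar in the 2 libraries. HRAS (chromosome 11, 532242 to 537287, hg19, value over its exons, as for every gene here) was at 15.3 RPKM with the empty vector against 15.3 RPKM with the ANGPTL4 plasmid, from 186 and 92 reads. The ratio was 1.01 (0.774 to 1.30), or 1.1 (0.849 to 1.42) centred on the median, and 0.894 with each library rescaled to 1000000, so its direction depended on the scaling. NRAS (chromosome 1, 115247090 to 115259515) was at 25.7 RPKM with the empty vector against 23.6 RPKM with the ANGPTL4 plasmid, from 752 and 339 reads. Its ratio was 0.916 (0.804 to 1.04), or 1.0 (0.881 to 1.14) centred on the median, and its log2 ratio turned from -0.12 to 0.03 with upper-quartile scaling. NRAS exceeded HRAS 1.68-fold in the control (1.43 to 1.99) and 1.54-fold in the ANGPTL4 library (1.22 to 1.96). No other row of the tables, small RNAs aside, overlapped the region of either gene.

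Genes that load, process and carry RAS signals held 1 gene past 2-fold. For this and every list below, counts past 2-fold or 1.5-fold are on the log2(RPKM + 1) scale, which draws low genes toward 0. Of 26 measured genes of RAS activation and processing, 1 was at least 2-fold lower and 0 higher, with a median log2 ratio of -0.19 (-0.08 centred on the median). That gene was FNTB, the beta subunit of the farnesyltransferase that lipidates RAS proteins, at 3.37 RPKM with the empty vector against 0.736 RPKM with the ANGPTL4 plasmid. The overlapping read-through row CHURC1-FNTB was at 0.806 and 3.87 RPKM, the opposite order, so the division of reads between these rows is uncertain. LYPLA1, a thioesterase that removes palmitate, was at 45.8 and 26.6 RPKM (ratio 0.581, 0.518 to 0.649). At the other end GAB1, an adaptor, and SOS2, an exchange factor that loads RAS with GTP, differed by less than 1.5-fold.

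The RAF, MEK and ERK list had 21 measured genes, none past 2-fold in either direction on the RPKM + 1 scale, and a median log2 ratio of -0.11 (0.01 centred on the median). FOSL1 and SPRY4, both induced by ERK signalling, were at the high end at 93.1 and 123.9 RPKM and at 11.9 and 16.6 RPKM. DUSP5, an ERK phosphatase that ERK itself induces, was at the low end at 51.1 and 36.8 RPKM.

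PIK3CA was the member with the lowest ratio. Its row (chromosome 3, 178865902 to 178957881), for the p110-alpha catalytic subunit of PI3-kinase, held 6.0 RPKM with the empty vector against 3.75 RPKM with the ANGPTL4 plasmid, from 371 and 114 reads. The counting intervals of the 2 levels did not overlap, at 5.40 to 6.64 RPKM and 3.09 to 4.50 RPKM. The ratio was 0.625 (0.502 to 0.772), or 0.685 (0.550 to 0.847) centred on the median, and the log2 ratio on the RPKM + 1 scale was -0.56. This interval lay below those of HRAS, NRAS and TSC1 and overlapped those of RB1 and STAG2. The last bases of the PIK3CA region overlap KCNMB3, which was at 0.612 and 0.574 RPKM. A partial near-identical copy of PIK3CA exists elsewhere in the genome, and how reads that match both were handled is not given in the sources used here.

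The paralogues of PIK3CA did not share one pattern. PIK3CB, for p110-beta, was at 7.08 RPKM with the empty vector against 4.83 RPKM with the ANGPTL4 plasmid (ratio 0.682, 0.540 to 0.856). The exon length of PIK3CB was not settled from the values, so the reads behind its interval are uncertain. PIK3CD, for p110-delta, was at 5.70 and 6.05 RPKM (ratio 1.06, 0.851 to 1.32), and PIK3CG was listed at 0 in both. Thus 3 catalytic subunits were present at levels between 3.75 and 7.08 RPKM. Of the 22 measured genes of the PI3-kinase and AKT list, 0 were 2-fold higher and 0 lower on the RPKM + 1 scale, none passed 1.5-fold, and the median log2 ratio was -0.07 (0.04 centred on the median). PIK3R4, a regulatory subunit of the class III enzyme, was near the low end at 6.93 and 4.83 RPKM. At the high end were FOXO1, a transcription factor held back by AKT, at 5.31 and 6.49 RPKM and the AKT phosphatase PHLPP1 at 1.61 and 2.01 RPKM.

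TSC1, for hamartin, showed no resolved difference. Its row (chromosome 9, 135766735 to 135820020) held 4.33 RPKM with the empty vector against 4.56 RPKM with the ANGPTL4 plasmid. The values fit more than 1 exon length, so the 282 and 146 reads behind them are minimum numbers and the interval is, if anything, too wide. The ratio was 1.05 (0.856 to 1.29), or 1.15 (0.938 to 1.41) centred on the median, and 0.935 with each library rescaled to 1000000, so its direction too depended on the scaling. TSC2, the partner that carries the GTPase-activating domain, was at a similar level, 5.43 and 5.95 RPKM (ratio 1.1, 0.924 to 1.30). Its exon length was not settled either. TBC1D7, the small additional subunit of the complex, was at 1.69 and 0.894 RPKM.

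Of the 29 measured genes of the TSC and mTOR list, none was past 2-fold on the RPKM + 1 scale and the median log2 ratio was -0.12 (-0.01 centred on the median). EIF4E, the cap-binding protein released downstream of mTOR, was at 3.33 RPKM with the empty vector against 1.82 RPKM with the ANGPTL4 plasmid (ratio 0.548, 0.425 to 0.70). RHEB, the GTPase that TSC1 and TSC2 switch off, was at the high end at 21.2 and 29 RPKM (ratio 1.37, 1.19 to 1.58). NPRL3, a subunit of the GATOR1 complex that restrains mTOR when amino acids are low, was at 7.88 and 10.7 RPKM.

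CDKN2A and CDKN2B were listed at 0 in both libraries. CDKN2A (chromosome 9, 21967751 to 21995300) and CDKN2B (chromosome 9, 22002902 to 22009362) are neighbours on the short arm. With the exon lengths of GENCODE 29, a level of 1 RPKM would have been 28.5 reads of CDKN2A with the empty vector and 14 with the plasmid, and 26.7 and 13.1 reads of CDKN2B. At a 1-sided 95% limit, narrower than the 2-sided intervals used elsewhere, a count of 0 allows up to about 3 reads. That is 0.105 and 0.214 RPKM for CDKN2A and 0.112 and 0.229 RPKM for CDKN2B. None of 42 widely expressed genes was listed at 0 in either library. Of 18383 protein-coding symbols, 23.2% were at 0 in both, beside 2 of the 8 members. No ratio between the libraries can be given for these genes.

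The sequences before their starts are shown because CDKN2A and CDKN2B are the members without reads, and MTAP is the nearest gene that reached 1 RPKM. They are the 250 bases upstream of each start in RefSeq, 5′ to 3′ on the gene's strand, on GRCh38.p14 and not on the build of the values. Capitals mark CpG dinucleotides, the sites of DNA methylation. CDKN2A has 2 starts in that table, the upstream one for the ARF transcript and the downstream one for the INK4A transcript.
CDKN2A, upstream start, chr9:21995325-21995574, minus strand: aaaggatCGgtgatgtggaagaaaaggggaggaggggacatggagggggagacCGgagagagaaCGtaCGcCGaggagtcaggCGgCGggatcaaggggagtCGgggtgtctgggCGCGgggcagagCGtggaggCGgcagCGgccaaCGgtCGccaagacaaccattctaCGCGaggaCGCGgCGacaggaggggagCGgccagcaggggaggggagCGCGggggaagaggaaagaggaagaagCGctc
CDKN2A, downstream start, chr9:21974858-21975107, minus strand: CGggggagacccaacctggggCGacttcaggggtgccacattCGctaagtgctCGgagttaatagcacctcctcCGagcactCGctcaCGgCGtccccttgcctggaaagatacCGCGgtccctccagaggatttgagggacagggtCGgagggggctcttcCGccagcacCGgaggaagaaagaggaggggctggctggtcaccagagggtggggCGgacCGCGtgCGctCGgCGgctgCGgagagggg
CDKN2B, chr9:22009306-22009555, minus strand: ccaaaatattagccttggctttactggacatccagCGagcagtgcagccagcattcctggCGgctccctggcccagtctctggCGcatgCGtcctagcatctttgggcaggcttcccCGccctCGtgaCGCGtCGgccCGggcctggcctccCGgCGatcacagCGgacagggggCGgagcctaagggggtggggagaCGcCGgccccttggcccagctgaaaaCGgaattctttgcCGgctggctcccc
MTAP, chr9:21802386-21802635, plus strand: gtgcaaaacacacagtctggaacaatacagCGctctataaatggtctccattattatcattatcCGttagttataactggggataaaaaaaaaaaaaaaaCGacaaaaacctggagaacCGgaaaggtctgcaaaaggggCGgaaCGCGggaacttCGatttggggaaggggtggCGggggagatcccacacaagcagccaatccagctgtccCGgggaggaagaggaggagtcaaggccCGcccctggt

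The motif searched was CG, which reads the same on both strands. The windows held 24 and 20 CpG for the upstream and downstream starts of CDKN2A, 18 for CDKN2B and 11 for MTAP. Of 35116 windows of this length, 23.7% held at least 24, 32.4% at least 20, 36.8% at least 18 and 50.3% at least 11. The RB1 window held 0 CpG and is left out, since it does not appear to lie at the main start of that gene. Among the other members with reads the windows held from 13 CpG (1 of the STAG2 starts) to 32 (HRAS). This count did not separate them from the members without reads. Methylation was not measured in these libraries.

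From MTAP to the nearest gene of at least 1 RPKM on the far side of CDKN2A, the rows held few reads or none. MTAP (chromosome 9, 21802542 to 21931646), a methionine salvage enzyme whose region ends 36.1 kb from that of CDKN2A, was at 3.58 RPKM with the empty vector against 2.67 RPKM with the ANGPTL4 plasmid, from at least 188 and 69 reads. On the other side the nearest gene with 1 RPKM was TUSC1 (25676396 to 25678856), 3681 kb away, at 1.36 and 1.38 RPKM. Of the 23 rows wholly between MTAP and TUSC1, 21 were listed at 0 in both libraries. Over the whole series only 18483 of 57773 rows were above 0 in at least 1 library, so most rows anywhere were at 0. Among the rows there with reads, the highest was the neuronal gene ELAVL2, at 0.474 RPKM with the empty vector against 0.301 RPKM with the ANGPTL4 plasmid. DMRTA1 was at 0.0273 and 0.0555 RPKM, which is 1 read in each library.

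The antisense RNA CDKN2B-AS1 and the small gene C9orf53 next to CDKN2A were likewise listed at 0. A clone-named non-coding row that spans from MTAP across both inhibitors (21802635 to 22032985) was at 0.651 RPKM with the empty vector against 0.992 RPKM with the ANGPTL4 plasmid, from at least 4 and 3 reads. In GENCODE 29 the exons of that gene share 460 bases with MTAP and 0 with CDKN2A or CDKN2B, so its reads need not come from near the inhibitors. CDKN2B-AS1 shares 341 exonic bases with CDKN2A, 7.88% of that gene's exons. Whether loss of DNA or silence of an intact locus underlies the zeros was not tested, since RNA values cannot tell them apart.

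**Figure D3:**
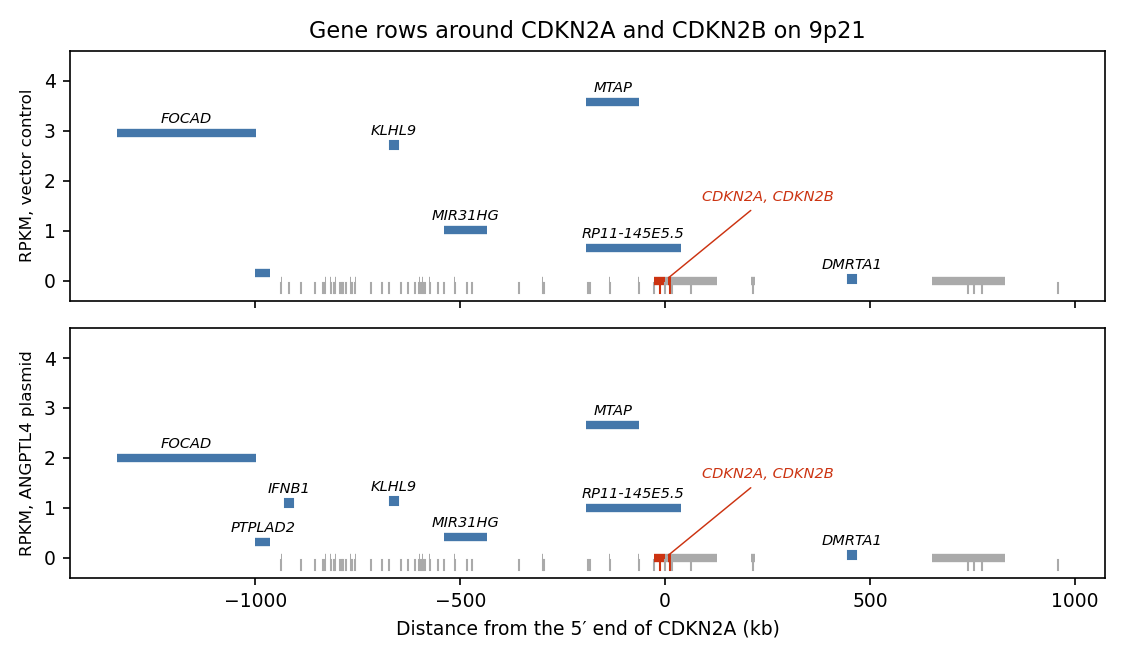
RPKM (vertical axes) of every row within 1 Mb of CDKN2A, drawn from its first to its last base by distance from the 5′ end of CDKN2A in kb (horizontal axis), in the vector control (top) and ANGPTL4 library (bottom). Blue rows have reads, grey rows with a tick are at 0, and red marks CDKN2A and CDKN2B at 0; squares mark short rows, and MTAP is the closest row at or above 1 RPKM.

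Within 1 Mb of CDKN2A, 57 rows lay, of which 49 were at 0 in both libraries and 5 reached 1 RPKM in at least 1. Of all 57773 rows, 18483 were above 0 in at least 1 library. FOCAD, a focal adhesion protein gene, was at 2.95 and 2.0 RPKM, and the long non-coding MIR31HG at 1.02 and 0.415 RPKM, the latter from 5 and 1 reads. KLHL9, an adaptor of a ubiquitin ligase, was at 2.72 RPKM with the empty vector against 1.14 RPKM with the ANGPTL4 plasmid (ratio 0.418, 0.248 to 0.674). Of 28 interferon gene and pseudogene rows in the window, 27 were at 0 in both; interferons are transcribed mainly on infection. The exception, IFNB1, was at 0 and 1.1 RPKM. These values stand for 0 and at least 2 reads, a difference not detectable at this depth. PTPLAD2 was at 0.156 and 0.317 RPKM.

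Other CDK inhibitors gave reads in both libraries. CDKN2C, a paralogue of the same INK4 family, was at 1.19 RPKM with the empty vector against 1.30 RPKM with the ANGPTL4 plasmid (ratio 1.09, 0.528 to 2.17). CDKN2D, its other paralogue, was at 3.75 and 4.32 RPKM (ratio 1.15, 0.642 to 2.02). CDKN1A, an inhibitor of the CIP/KIP family and a p53 target, was at 78.5 and 77.4 RPKM. It and CCND1, the cyclin D partner of CDK4 and CDK6, at 210.4 and 199.1 RPKM, were picked for their high level after the values were seen.

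RB1, the target of these kinases, was expressed in both libraries. Its row (chromosome 13, 48877887 to 49056122) held 7.03 RPKM with the empty vector against 5.82 RPKM with the ANGPTL4 plasmid, from 285 and 116 reads. The intervals of the levels overlapped, at 6.24 to 7.89 RPKM and 4.81 to 6.97 RPKM. The ratio was 0.827 (0.661 to 1.03), or 0.907 (0.725 to 1.13) centred on the median. LPAR6, a receptor gene inside the RB1 region, was at 0.0372 and 0.151 RPKM. The pocket protein paralogues were also present, RBL1 at 6.29 and 5.83 RPKM over 2 rows and RBL2 at 17.1 and 13.1 RPKM (ratio 0.769, 0.674 to 0.875).

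Of 33 measured genes of the RB and cell cycle entry list, none was past 2-fold on the RPKM + 1 scale. A log2 ratio below 0 was found for 27 of them, beside 64.4% of all measured genes. The list median was -0.09 (0.02 centred on the median). After that centring 16 were below 0. CDK4, the kinase that CDKN2A and CDKN2B inhibit, was at 17.8 RPKM with the empty vector against 9.27 RPKM with the ANGPTL4 plasmid (ratio 0.520, 0.411 to 0.654). TSPAN31 and a row labelled 9-Mar overlap the region of CDK4, at 2.29 and 2.87 RPKM and at 2.01 and 2.63 RPKM, and shared reads are possible. CCNE2, a cyclin E, was at 1.45 and 0.633 RPKM, from 42 and 9 reads. Its plain ratio was 0.436 (0.186 to 0.908). LIN37, a subunit of the MuvB complex, was at 1.35 and 0.658 RPKM, with a plain ratio of 0.488 (0.164 to 1.22), and was picked after its value was seen because its plain ratio too is past 2-fold. INTS8 and NDUFAF6 overlap the region of CCNE2, at 5.32 and 4.76 RPKM and at 1.14 and 0.869 RPKM, and shared reads are possible. CDK6, the other cyclin D kinase, was at 15.4 and 14.4 RPKM. TFDP1, the dimer partner of E2F factors, was near the high end at 31.9 and 35.4 RPKM.

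E2F target genes, read here as the output side of RB1, were all 24 measured and none was past 2-fold on the RPKM + 1 scale. Their median log2 ratio was -0.13 (-0.02 centred on the median). Of the 24, 17 were below 0, beside 64.4% of all measured genes, and 14 were below 0 after centring on the median. CDK1, the mitotic kinase, was at 23.6 RPKM with the empty vector against 13.4 RPKM with the ANGPTL4 plasmid (ratio 0.569, 0.477 to 0.676). TK1, thymidine kinase, was at 25.6 and 17.7 RPKM. MCM3, a subunit of the replicative helicase, was at 47.2 and 56.6 RPKM and EZH2, a histone methyltransferase, at 5.59 and 7.39 RPKM, so members lay on both sides.

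STAG2 was the other member whose interval lay below 1, by a narrow margin. Its row (chromosome X, 123094062 to 123556514) held 13.6 RPKM with the empty vector against 11.8 RPKM with the ANGPTL4 plasmid, from 730 and 313 reads. The intervals of the levels overlapped, at 12.6 to 14.6 RPKM and 10.5 to 13.2 RPKM. The ratio was 0.872 (0.761 to 0.996), and centred on the median it was 0.956 (0.835 to 1.09), which includes 1. STAG1, the alternative subunit that takes the same place in cohesin, was lower at 2.39 and 2.06 RPKM. STAG3, the meiotic form, was at 0.0886 RPKM with the empty vector and at 0 with the ANGPTL4 plasmid. The deposited region of STAG2 reaches over SH2D1A and part of TENM1, both at 0.

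Of 20 measured cohesin genes, none was past 2-fold or 1.5-fold on the RPKM + 1 scale, and the median log2 ratio was -0.06 (0.05 centred on the median). ESCO1, an acetyltransferase that stabilises cohesin, was at 4.89 RPKM with the empty vector against 2.98 RPKM with the ANGPTL4 plasmid. ESPL1, the separase that opens the ring at anaphase, was at 6.01 and 4.14 RPKM. PTTG1, the securin that inhibits separase, was at 43.5 and 55.1 RPKM, and DDX11, a helicase that aids cohesion, at 7.29 and 8.68 RPKM.

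A wider list of genes often mutated in bladder cancer ran from a log2 ratio of -0.69 (CUL1) to 0.65 (PSIP1), and the members from -0.56 to 0.06. Of its 29 measured genes, 0 were 2-fold higher and 0 lower on the RPKM + 1 scale, and the median log2 ratio was -0.05 (0.06 centred on the median). CUL1, the scaffold of SCF ubiquitin ligases, was at 16.0 RPKM with the empty vector against 9.50 RPKM with the ANGPTL4 plasmid (ratio 0.596, 0.477 to 0.739). PSIP1, a chromatin-binding coactivator, was at 3.1 and 5.44 RPKM (ratio 1.75, 1.36 to 2.26), in a region that overlaps SNAPC3 at 2.39 and 1.53 RPKM. TXNIP, a thioredoxin inhibitor, was at 157.6 and 105.4 RPKM and BTG2, an antiproliferative gene, at 6.35 and 8.52 RPKM.

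**Figure D4:**
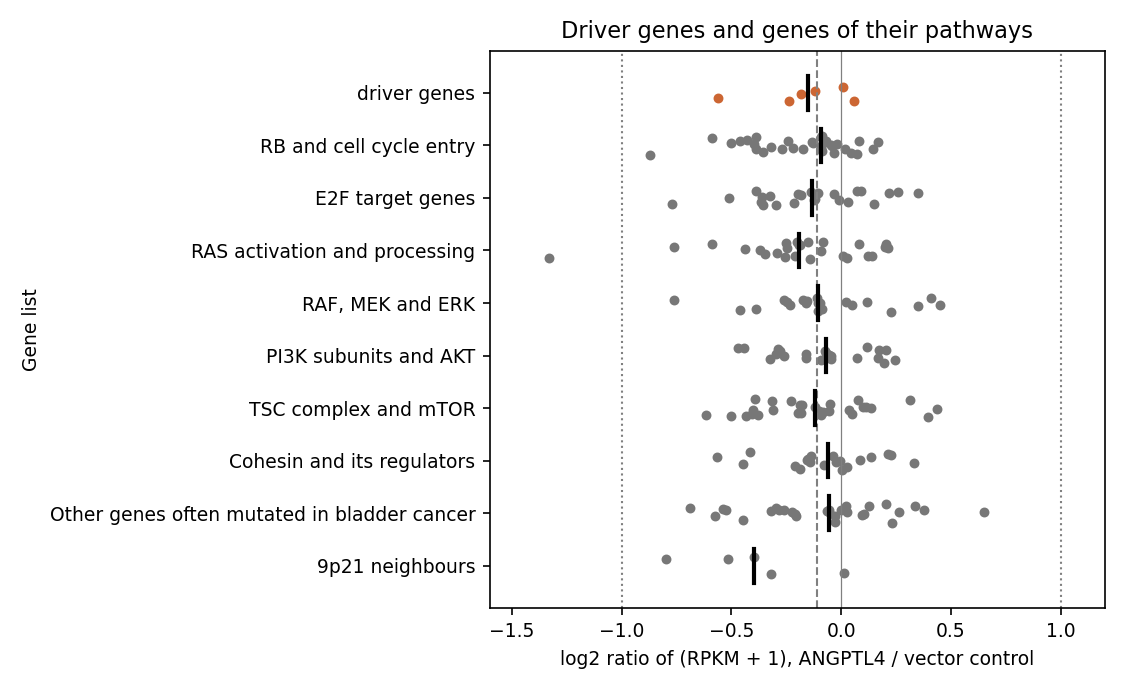
log2 ratio of RPKM + 1 between the libraries (horizontal axis) for each measured gene (points) of the driver genes (orange) and of the lists around them (grey, vertical axis), with list medians as bars. Dotted lines mark 2-fold, the dashed line the median of all measured genes at -0.11, and a single gene, FNTB, lies beyond 2-fold.

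Over the 233 genes of these lists, the gene nearest in log2(RPKM + 1) across the 2 libraries is given for 5 members. RASA1, a RAS GTPase-activating protein, lay nearest to STAG2, at 13.5 and 11.7 RPKM (distance 0.015). AKT1 lay nearest to NRAS, at 25.4 and 24.1 RPKM (distance 0.033), and LIN52 nearest to TSC1 (distance 0.053). CDK6 lay nearest to HRAS (distance 0.084) and ESPL1 to PIK3CA (distance 0.11). With 2 libraries these are likenesses of level and carry no test.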

How the data were processed

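RNA of BFTC 905 cells was sequenced in 2 libraries, 1 with the empty vector and 1 with the ANGPTL4 plasmid, and each was placed in its group by the transfection in its label. The values are RPKM per gene row as the authors deposited them, per the file headers, with coordinates on hg19 according to what the submitters' processing notes name. The aligner, annotation release, strand setting and treatment of reads matching several loci are not given in the sources used here; such rules decide how overlapping genes and near copies share reads. Rows of the same symbol were summed. Region starts count from 0 in the tables and from 1 here.

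The smallest library total at which all 13 mitochondrial protein genes gave whole reads (tolerance 0.0001) was taken as the depth. A row's exon length was the whole number at which both libraries gave whole reads, settled where 1 candidate lay within 5% of the GENCODE 29 exon length or, failing that, within 2.5-fold of it. Otherwise the smallest candidate in that range was used. Of 18483 rows above 0, 60.9% were settled. Level intervals are exact Poisson, ratio intervals exact conditional binomial, both at 95%. The log2 ratio uses a pseudocount of 1, which understates low genes. Measured means at least 1 RPKM in a library. With 1 library per group no test was made. The procedures were run on simulated data with other depths and with exon lengths close to those of GENCODE 29. Rows such as TSC1, whose length used lay far from that annotation, were not covered by it. Scripts used Python 3.11.15, numpy 2.4.6 and scipy 1.17.1.

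Members and lists were chosen with earlier results of these data known. The text names all members, the 2 genes at either end of each list (values past 1.5-fold, and some below it), paralogues of members, neighbours of CDKN2A, rows overlapping a member and the gene nearest in level. Some genes that this rule names are not reported here. A few others are named and said so, or given as partners of a named gene. Alternatives were pseudocounts of 0.1 and 5, no minimum (with members at 0 in both libraries still left out) or one of 5 RPKM, and the highest row in place of the sum. Further ones were scaling by the upper quartile or by the median gene, and rescaling each library to 1000000.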

Additional observations from a re-analysis of the deposited data

How the results depend on the processing

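The alternatives gave 67 recomputed values. Some could not move: each member is a single row, so taking the highest row in place of the sum left every level as it was. Dropping the minimum brought in no further member, since those at 0 stayed out. The counts of members past 2-fold stayed at 0 in each direction under every alternative run. The number of members with an interval wholly below 1 did depend on scaling. It was 2 as deposited, 1 (PIK3CA) after centring and after upper-quartile scaling, where 16.7% and 15.2% of all settled genes were below, and 4 after rescaling to 1000000, where 45.2% were. PIK3CA ranged in log2 ratio from -0.80 (rescaled) to -0.33 (pseudocount 5). The sign of small differences was not stable: NRAS was at 0.03 after upper-quartile scaling, and HRAS and TSC1 were at -0.16 and -0.09 after rescaling. Centring moved the median of all measured genes by 0.11. The genes at least 2-fold higher and lower numbered 141 and 226 as deposited, 182 and 139 after centring, 177 and 138 after upper-quartile scaling, and 225 and 682 after rescaling. No paired analysis was possible because each group has 1 library. At the 1-sided limit of about 3 reads, a count of 0 allows up to 0.214 RPKM of CDKN2A and 0.229 RPKM of CDKN2B in the shallower library. Lower levels could not be seen.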
